A study of Mus musculus with 9 samples.

Results

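Oxidative phosphorylation is the work of the mitochondrial inner membrane. Complex I (NADH dehydrogenase) and complex II (succinate dehydrogenase) pass electrons through ubiquinone to complex III (cytochrome bc1), cytochrome c carries them to complex IV (cytochrome c oxidase), and complex V (ATP synthase) uses the proton gradient they build to make ATP. Most subunits are encoded in the nucleus, translated in the cytosol and imported, while a small set is encoded in mitochondrial DNA, transcribed as long polycistronic RNAs and translated inside the organelle. Complex II is encoded by nuclear genes alone. In the liver this machinery supplies ATP for gluconeogenesis and urea synthesis.

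The 95 genes described here, termed subunit genes below, were chosen by symbol from the 19944 genes of the expression table of mouse liver. Their symbols name nuclear subunits of complexes I to V (Nduf, Sdh, Uqcr, Cox4 to Cox8 and Atp5 genes) or protein-coding genes of mitochondrial DNA, and their mean over the 9 libraries was at least 10 normalized counts. Of these 95 genes, 82 were nuclear, with 39 in complex I, 4 in complex II, 8 in complex III, 14 in complex IV and 17 in complex V. The other 13 were mitochondrial, with 7 in complex I, 1 in complex III, 3 in complex IV and 2 in complex V. A further 7 symbols were left out as pseudogenes marked -ps, and Cox4i2, Cox6a2, Cox6c2 and Cox8b lay under the minimum. Not every gene kept is a plain subunit gene. In complex I, Ndufb4c is annotated as a processed pseudogene and Ndufa4l2 is a paralog. The annotated type of Ndufb1 is a noncoding RNA of a bidirectional promoter. The choice goes by symbol, so Cyc1, the cytochrome c1 of complex III, was not among the 95 and is given with the electron carriers.

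RNA came from livers of male FVB mice 60 days old on normal chow. KI mice carried a knock-in mutation in the Tudor domain of SND1, a domain that binds methylated arginine. KO mice lacked Snd1, and WT mice carried the unaltered gene. Each genotype had 3 libraries, named below by genotype and number (KI_1, KO_1, WT_1), and the labels give no promoter, Cre driver or tissue restriction for either allele. The comparison asks what loss of the whole protein, and loss of its Tudor domain function, does to liver transcripts.

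Recovered depth ran from 59678412 to 66384374 reads per library. Snd1 was at 5373, 7941 and 5595 normalized counts in KI livers, at 227, 414 and 359 in KO livers, and at 6951, 8446 and 6512 in WT livers, which fits the labels (log2 fold change KO over WT -4.48, limma adjusted p = 8.82e-06). Some libraries stood apart in other transcripts. A list of 15 genes of the exocrine pancreas took 0.482% of reads in KI_1, 5.74% in KI_3 and 1.22% in WT_3, and at most 0.0052% in each other library. A list of 25 acute phase genes took 2.15%, 2.78% and 1.84% of reads in KI livers, 8.66%, 21.7% and 22.4% in KO livers, and 2.52%, 2.64% and 2.30% in WT livers. The labels name hepatocytes, and all 12 hepatocyte genes looked for were present, with summed normalized counts of 4344364 to 6314656 in KI, 6018465 to 8080224 in KO and 5618636 to 7171869 in WT livers. 1 of those 12, Fgb, is also an acute phase gene and adds to the KO sums. It was at 171312, 224611 and 170311 in KI livers, 641309, 1683556 and 1434507 in KO livers, and 226480, 197375 and 219063 in WT livers. The KO sums therefore do not measure hepatocyte content alone. Summed normalized counts of 8 neutrophil genes were 106, 200 and 419 in KI livers, 213, 1013 and 1801 in KO livers, and 248, 95.4 and 266 in WT livers.

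The summed normalized count of the 82 nuclear genes was 558988, 596088 and 579185 in KI_1 to KI_3, 543892.5, 429883.5 and 389649 in KO_1 to KO_3, and 593936, 593829.8 and 588611 in WT_1 to WT_3. Every KO liver was below every WT liver, and KO_2 and KO_3 were far lower than KO_1. The summed count of the 13 mitochondrial genes was 401353, 485854.5 and 427533.5 in KI livers, 424323.5, 428893 and 447644.5 in KO livers, and 608329, 536842 and 426852 in WT livers. Here the WT livers were spread widely, and WT_3 lay among the KO and KI livers. In samples that hold several cell types, fewer cells of a type and less RNA per cell cannot be told apart.

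In KO against WT livers, 12 of the 95 genes fell and 0 rose (limma on log2(value + 1), Benjamini-Hochberg adjusted p under 0.05 over 15238 genes). Over all genes tested 4.2% were called lower, 4.63% were called higher and 8.83% were called in either direction. All 12 were nuclear. The median log2 fold change was -0.33 over the 82 nuclear genes, against 0.001 over all genes, and 77 of the 82 were below 0, as were 50% of all genes. In 47 nuclear genes every KO library was below every WT library, and 0 genes showed the opposite; among all genes 14.2% lay below without overlap and 15% above. Complex by complex, 4 of 39 nuclear genes fell in complex I (median log2 fold change -0.31), 1 of 4 in complex II (-0.54), 2 of 8 in complex III (-0.34), 2 of 14 in complex IV (-0.38) and 3 of 17 in complex V (-0.33). Without overlap below WT were 20, 3, 3, 11 and 10 genes of these complexes in turn. No complex was tested against another.

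The count of 12 depended on single libraries. It was 48 without KO_1, 2 without KO_2 and 3 without KO_3. It was 3 without WT_1, 4 without WT_2 and 3 without WT_3, and 0 without the 3 libraries with pancreatic transcripts, a fit in which 23 genes had an unadjusted p under 0.05 against 49 in the fit of all libraries. The nuclear median stayed between -0.45 and -0.27 when single libraries were left out, and was -0.34 without those 3 libraries. Over all genes the count was 1346 in the fit of all libraries, and it also moved with single libraries. It was 2516, 501 and 778 without KO_1, KO_2 and KO_3, and 533, 611 and 609 without WT_1, WT_2 and WT_3. An unadjusted p under 0.05 was found in 25% of all genes in the fit of all libraries.

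**Figure D1:**
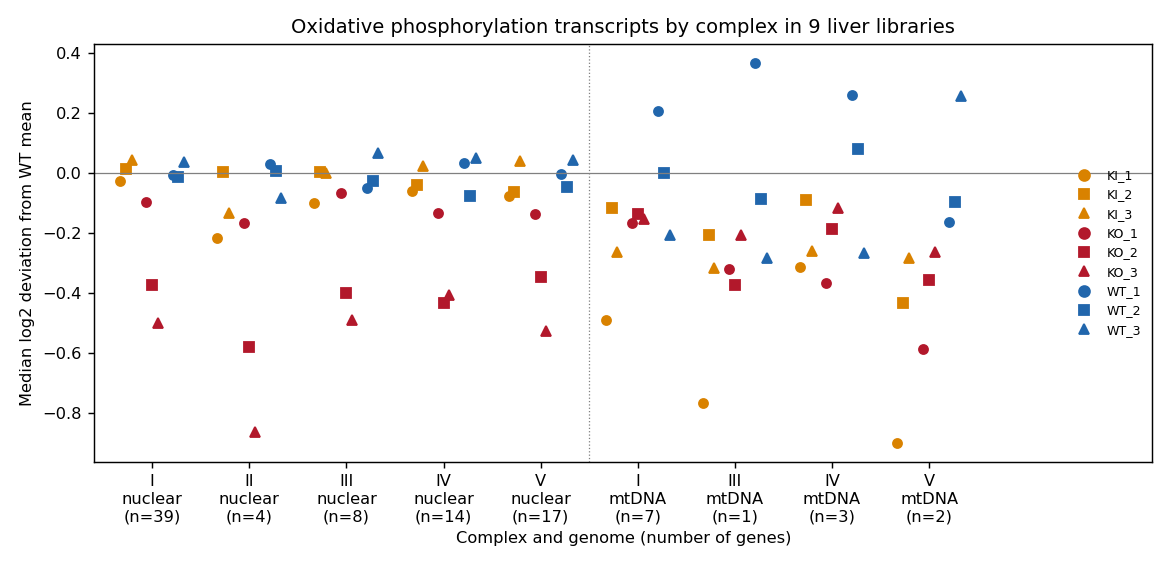
Median log2 deviation from the WT mean (vertical axis) of the genes of each complex and genome (horizontal axis, with the number of genes), 1 point per library, KI, KO and WT from left to right in each column. In the nuclear columns KO_2 and KO_3 lie lowest, at -0.38 and -0.50 over all 82 genes, while KO_1 is at -0.11, and in the mitochondrial columns WT livers run from -0.24 to 0.24 over all 13 genes.

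The 3 KO livers differed among themselves. The median log2 deviation of the 82 nuclear genes from the WT mean was -0.07, -0.01 and 0.03 in KI livers, -0.11, -0.38 and -0.50 in KO livers, and 0.003, -0.03 and 0.04 in WT livers. KO_1 was the highest KO liver in 70 of 82 nuclear genes and KO_3 the lowest in 58. A further 24 nuclear genes were below every WT library in KO_2 and KO_3 but not in KO_1, and in 3 of them KO_1 was above every WT library. The same pattern was present in 9.42% of all 15238 genes tested, against these 24 of 82. They include catalytic subunits, named here after their values were seen. Ndufs1, a core iron-sulfur subunit of complex I, was at 7524, 8509 and 6713 in KI livers, 8665, 6881 and 5261 in KO livers, and 8439, 8728 and 8116 in WT livers. Atp5a1, the alpha subunit of the ATP synthase head, was at 42784, 51204 and 43529 in KI livers, 47951, 31825 and 25199.8 in KO livers, and 48790.3, 53760.1 and 46841 in WT livers. Neither gene passed the test in KO over WT (adjusted p = 0.294 for Ndufs1 and 0.151 for Atp5a1). The acute phase share of reads was also lowest in KO_1 among the KO livers, and the neutrophil sum of KO_1 was within the WT range; their part in the result was not tested. The median deviation of the 12 hepatocyte genes was 0.34, 0.14 and -0.21 in KO_1, KO_2 and KO_3, against 0.09, 0.10 and -0.21 in WT livers.

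In complex I the 4 genes that fell were 3 accessory subunits and 1 core subunit. Ndufa6, an accessory subunit of the LYR family on the matrix arm, was at 4624, 4512 and 5243 in KI livers, 3878, 2861 and 3262 in KO livers, and 5124, 5152 and 5688 in WT livers. Every KO value was below every WT value (log2 fold change -0.68 ± 0.13 SE, limma adjusted p = 0.0106). Ndufb9, an accessory subunit of the membrane arm, was at 3139, 3050.2 and 3106 in KI livers, 2438, 1976 and 2140.0 in KO livers, and 3281, 2923 and 2961 in WT livers (KO over WT -0.49 ± 0.11, adjusted p = 0.0205). KI and WT livers overlapped there and all KO livers lay below both. Ndufa5, an accessory subunit of the matrix arm, averaged 2222 ± 99.5 in KI, 1519 ± 231 in KO and 2198 ± 236 in WT livers (SD, n = 3 each; KO over WT -0.54, limma adjusted p = 0.0325). Ndufv2, a core iron-sulfur subunit next to the NADH site, averaged 4194 ± 264 in KO and 5609.7 ± 454 in WT livers (log2 fold change -0.42, limma adjusted p = 0.0348). Over classes, 3 of 30 accessory and 1 of 7 core nuclear genes of complex I fell, with medians of -0.34 and -0.31.

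Complex II oxidizes succinate and so joins the citric acid cycle to the respiratory chain. Sdhb, its iron-sulfur subunit, had the lowest log2 fold change of the 95 genes in KO over WT. It was at 10176, 11219.8 and 10613 in KI livers, 8913, 5368 and 4438 in KO livers, and 12068, 11475 and 11069 in WT livers. KO_2 and KO_3 were far below KO_1, which was itself below every WT liver (-0.95 ± 0.21 SE, limma adjusted p = 0.0231). The KO mean was 0.541 of the WT mean. The other 3 genes did not pass. Sdha, the flavoprotein of the catalytic head, was at 25142, 17322 and 14425 in KO livers against 28310.4, 31897.5 and 26970.5 in WT livers (-0.65, adjusted p = 0.0715). Sdhc and Sdhd, the membrane anchors, had log2 fold changes of -0.42 and -0.19 (adjusted p = 0.109 and 0.441).

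In complex III both genes that fell were small accessory subunits. Uqcrb was at 6198, 6246 and 6323 in KI livers, 4731, 3934 and 4034 in KO livers, and 5915, 6161 and 7718 in WT livers. The highest KO liver was below the lowest WT liver (-0.63 ± 0.13 SE, limma adjusted p = 0.0135). Uqcrh, the hinge protein that holds cytochrome c1, averaged 8291 ± 589 in KI, 6159.9 ± 472 in KO and 8454 ± 490.4 in WT livers (SD, n = 3 each; KO over WT -0.46, limma adjusted p = 0.0287). The Rieske iron-sulfur gene Uqcrfs1, the 1 core nuclear gene of complex III under this choice by symbol, did not pass (-0.28, adjusted p = 0.194).

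In complex IV, Cox7b and Cox7c fell, both small subunits with 1 membrane span that surround the catalytic core. Cox7b was at 7491, 7209 and 8916 in KI livers, 5595, 4923 and 4922 in KO livers, and 8927, 7870.1 and 9416 in WT livers. The highest KO value was below the lowest KI and WT values, and the log2 fold change in KO over WT was -0.76 ± 0.12 SE with the lowest adjusted p of the 95 genes (limma, 0.00543). The KO mean was 0.589 of the WT mean. Cox7c was at 8244, 7845 and 9199 in KI livers, 6251, 6050.1 and 6379 in KO livers, and 8617, 7842 and 9082 in WT livers. The 3 KO livers were close together here, unlike in Sdhb (-0.45 ± 0.11, limma adjusted p = 0.0289).

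In complex V, 1 gene each fell in the catalytic head, the peripheral stalk and the membrane part. Atp5c1, the gamma subunit whose rotation drives catalysis, was at 13295, 13784 and 13431 in KI livers, 12144, 9514 and 8019.9 in KO livers, and 14359.5, 13958 and 14941 in WT livers (KO over WT -0.56 ± 0.15, limma adjusted p = 0.0403). KO_1 was again the KO liver nearest to WT. Atp5k, the small membrane subunit e that takes part in dimer formation, was at 3623, 2991 and 3911 in KI livers, 2631, 2186 and 2055 in KO livers, and 3524, 3333 and 3744 in WT livers (-0.63 ± 0.13, limma adjusted p = 0.0176). Atp5j, coupling factor 6 of the stalk, averaged 5992 ± 435 in KO and 7788 ± 538 in WT livers (-0.38, limma adjusted p = 0.0475). Atp5e, the epsilon subunit of the head, differed from these, with a log2 fold change of -0.003 (adjusted p = 0.992).

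The calls were not equally firm. Cox7b and Ndufa6 were called lower in KO than in WT in 9 of 9 fits that left out 1 library, Uqcrb in 8 and Atp5k in 5. Ndufa5, Ndufb9, Sdhb, Uqcrh and Cox7c were called in 4 each, Ndufv2 in 2, and Atp5c1 and Atp5j in 1 each. Of those 9 fits, 3 left out a KI library and kept every KO and WT library. The subunit genes called in them numbered 10, 10 and 9, so the tallies out of 9 are a mild check. Without the 3 libraries with pancreatic transcripts the adjusted p was 0.101 for Cox7b and 0.151 for Ndufa6. Exons of Ndufb9 overlap those of another annotated gene on the same strand, and exons of Uqcrb and Atp5j those of a gene on the opposite strand. The strand setting of the counting was not given in the sources used here. Part of the counts of Ndufb9, Uqcrb and Atp5j may therefore belong to the neighbour, for Ndufb9 whatever that setting.

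**Figure D2:**
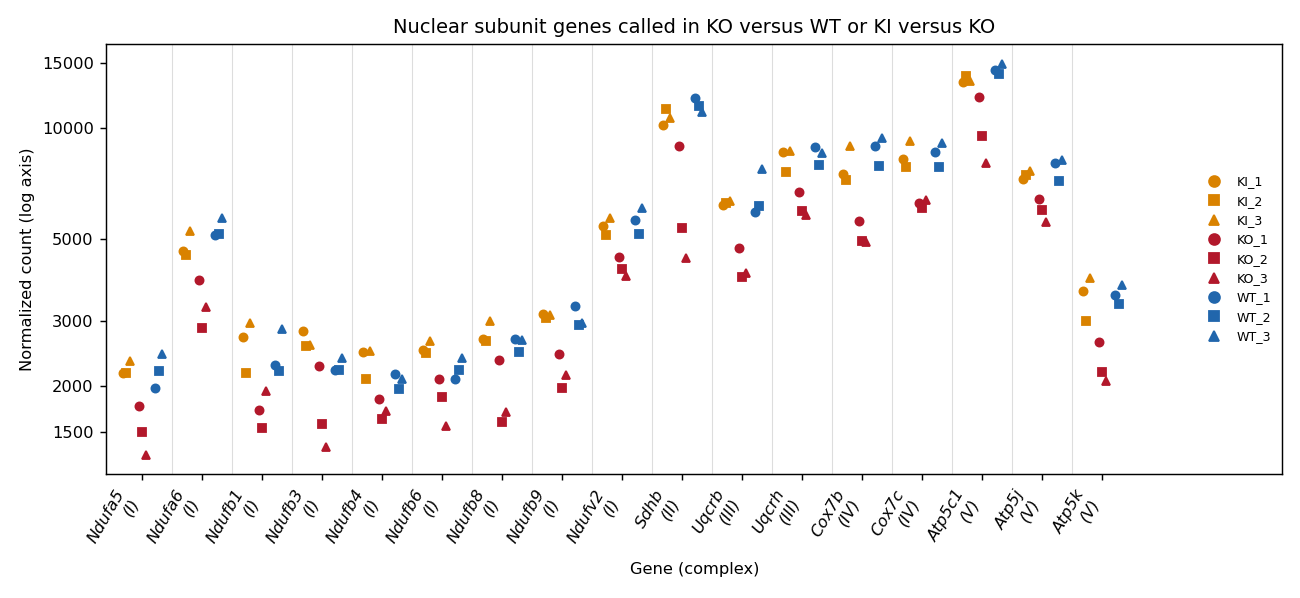
Normalized counts on a log axis (vertical) of the 17 nuclear genes called in KO over WT or in KI over KO (horizontal, complex in brackets), 1 point per library, KI, KO and WT from left to right for each gene. KO livers lie below WT and KI livers except KO_1 beside WT for Ndufb3, and Sdhb has KO_1 at 8913 and KO_3 at 4438.

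Promoter sequence is shown for 4 genes that fell and hold a match to a motif of a factor known for this gene class, and for Cox7b, the gene with the lowest adjusted p, which holds none. Nuclear respiratory factor NRF1, GABP (the ETS factor also called NRF2), YY1, the estrogen-related receptors and CREB are textbook regulators of respiratory genes. The windows are the 250 bases before the RefSeq transcription start, build GRCm38.p6, written 5′ to 3′ on the gene's strand, with the match in capitals. The windows are chr4:140961021-140961270 (plus strand) for Sdhb, chr15:82354292-82354541 (minus strand) for Ndufa6, chr5:108434400-108434649 (minus strand) for Atp5k, chr4:116075071-116075320 (minus strand) for Uqcrh and chrX:106015450-106015699 (plus strand) for Cox7b.
Sdhb: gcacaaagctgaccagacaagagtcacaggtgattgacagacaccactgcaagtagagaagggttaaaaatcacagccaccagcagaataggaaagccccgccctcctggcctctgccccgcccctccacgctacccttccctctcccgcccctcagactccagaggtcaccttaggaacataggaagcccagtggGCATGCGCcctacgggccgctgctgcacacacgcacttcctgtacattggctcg
Ndufa6: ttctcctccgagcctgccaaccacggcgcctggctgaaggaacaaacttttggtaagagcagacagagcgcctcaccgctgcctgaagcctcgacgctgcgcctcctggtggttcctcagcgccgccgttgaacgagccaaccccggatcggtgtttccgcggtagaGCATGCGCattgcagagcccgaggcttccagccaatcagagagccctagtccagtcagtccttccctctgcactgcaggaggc
Atp5k: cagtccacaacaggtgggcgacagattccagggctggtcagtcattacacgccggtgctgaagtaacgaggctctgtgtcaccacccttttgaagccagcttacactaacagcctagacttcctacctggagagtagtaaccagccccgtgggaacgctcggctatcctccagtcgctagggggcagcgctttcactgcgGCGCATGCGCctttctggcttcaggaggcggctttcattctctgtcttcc
Uqcrh: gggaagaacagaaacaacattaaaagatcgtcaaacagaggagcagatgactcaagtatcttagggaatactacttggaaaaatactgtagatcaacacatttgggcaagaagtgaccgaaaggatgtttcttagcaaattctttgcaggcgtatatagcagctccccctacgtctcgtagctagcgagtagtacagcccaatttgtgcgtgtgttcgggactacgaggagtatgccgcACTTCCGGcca
Cox7b: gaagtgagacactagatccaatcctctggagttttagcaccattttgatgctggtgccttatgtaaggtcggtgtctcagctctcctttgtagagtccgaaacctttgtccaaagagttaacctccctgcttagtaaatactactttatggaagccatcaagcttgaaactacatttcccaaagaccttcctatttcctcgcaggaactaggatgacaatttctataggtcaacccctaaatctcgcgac
The NRF1 motif searched was GCATGCGC on either strand. It lies 54 to 47 bases before the start in Sdhb and 83 to 76 bases before it in Ndufa6. In Atp5k it is present on both strands in overlapping copies, from 50 to 41 bases before the start. The capitals of Uqcrh are the ETS motif CCGGAAGT read on the other strand, 11 to 4 bases before the start. Atp5j has the YY1 motif AAGATGGCG, which overlaps no other match in its window. Of the 82 nuclear genes, 68 matched a RefSeq promoter by symbol, as did 15 of the 17 called ones. An NRF1 match was found in 8 of 68 genes, or 11.8%, against 2.26% of all 32851 promoters of the same length. The shares were 4.41% and 2.88% for the ETS motif, 1.47% and 0.606% for the YY1 motif, 4.41% and 1.33% for the estrogen-related receptor motif CAAGGTCA, and 5.88% and 1.55% for the CREB motif TGACGTCA. A gene with more than 1 RefSeq start counted once if any of its windows held the match, while each window counted on its own among all promoters. NRF1 matches were in 3 of 15 called and 5 of 53 other genes with a promoter. ETS matches were in 1 called and 2 other genes, and YY1 matches in 1 and 0. Estrogen-related receptor matches were in 0 called and 3 other genes, and CREB matches in 0 and 4. A match is a run of letters in the window and does not show that a factor binds there.

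KI livers were near WT livers in the nuclear genes. In KI against WT, 0 of the 95 genes were called by limma, by edgeR or by DESeq2. Over all genes tested limma called 0.0263%, with 0.00656% higher and 0.0197% lower. An unadjusted limma p under 0.05 was found in 3 of the 95 genes and in 11.6% of all genes. In 3 nuclear genes every KI library was above every WT library and in 4 every one was below, where 9.47% and 10.2% of all genes were. The median log2 fold change of the nuclear genes was -0.02, with 35 above 0 and 47 below; of all genes 50.7% were above 0. The medians were 0.02 in complex I, -0.13 in complex II, -0.02 in complex III, -0.03 in complex IV and -0.02 in complex V. Scaling to CPM (reads relative to the library total) moved the median of all genes from 0.004 to -0.09, and the nuclear median of KI over WT then stood at -0.11 with 66 of 82 genes below 0. The nuclear gene with the smallest p was Atp5e, at 7592, 6177 and 7682 in KI livers, 5610.4, 4892 and 5789 in KO livers, and 5642, 5006 and 5658 in WT livers. Every KI liver was above every WT liver, but the difference did not pass (0.39 ± 0.12 SE, limma adjusted p = 0.25). In the other complexes the smallest p belonged to Ndufb4 (0.18, limma adjusted p = 0.564), Sdhd (-0.15, 0.711), Uqcr11 (0.14, 0.773) and Cox8a (-0.18, 0.675), and none of them passed.

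In KI against KO livers 14 of the 95 genes were higher and 0 lower, where 3.6% of all genes tested were called higher, 4.85% lower and 8.45% in either direction. All 14 were nuclear, 8 in complex I, 1 in complex II, 2 in complex III, 2 in complex IV and 1 in complex V. The nuclear median was 0.33, against 0.01 over all genes, and 81 of 82 genes were above 0, as were 51% of all genes. In 37 nuclear genes every KI library was above every KO library, where 12.3% of all genes were. The contrast shares its KO libraries with KO over WT. The 5 genes called here but not in KO over WT were the membrane arm subunits Ndufb1, Ndufb3, Ndufb4, Ndufb6 and Ndufb8. In all of them but Ndufb3, every KO library was also below every WT library. Ndufb3 was at 2824, 2559 and 2575 in KI livers, 2258, 1575 and 1369 in KO livers, and 2213, 2204 and 2374 in WT livers (KI over KO 0.65 ± 0.16, limma adjusted p = 0.0387). KO_1 overlapped the WT livers there, whereas no KO liver reached the KI livers. Ndufb8 averaged 2774 ± 197 in KI and 1881 ± 412 in KO livers (0.58, limma adjusted p = 0.0371), and Ndufb1 averaged 2617 ± 404 in KI and 1733 ± 197 in KO livers (0.59, limma adjusted p = 0.0418). Ndufb4 and Ndufb6 had log2 fold changes of 0.44 and 0.48 (limma adjusted p = 0.0343 and 0.039). Exons of Ndufb1, Ndufb6 and Ndufb8 overlap another annotated gene.

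Cox7b again had the lowest adjusted p in KI over KO (0.61 ± 0.12, limma, 0.0153), and Sdhb the highest fold change (0.84 ± 0.21, limma adjusted p = 0.0386). Atp5k stood at 0.61, Uqcrb at 0.57, Ndufa5 at 0.56, Ndufa6 at 0.53, Ndufb9 at 0.51, Cox7c at 0.43 and Uqcrh at 0.43. Of 9 fits that left out 1 library, Cox7b was called in 7, Ndufb9 in 6, and Uqcrb and Atp5k in 5 each. Ndufa5, Ndufb1 and Cox7c were called in 4 each and Ndufa6 in 3. Ndufb4 and Uqcrh were called in 2 each, and Sdhb, Ndufb3, Ndufb6 and Ndufb8 in 1 each. Of these 9 fits, 3 left out a WT library and kept every KI and KO library. The count of 14 was 1 without KI_1, 11 without KI_2 and 0 without KI_3, 47 without KO_1, 0 without KO_2 and 3 without KO_3, and 5, 6 and 8 without WT_1, WT_2 and WT_3. It was 0 without the 3 libraries with pancreatic transcripts, which leaves KI_2 as the single KI liver, assumed to vary like the others. It was 3 with CPM scaling. The nuclear median was 0.31 without those libraries and 0.22 with that scaling. Over all genes the count of 1287 moved as well. It was 481, 1113 and 535 without KI_1, KI_2 and KI_3, and 2301, 400 and 816 without KO_1, KO_2 and KO_3. Without WT_1, WT_2 and WT_3 it was 833, 956 and 997, and with scaling to CPM of the total it was 1272.

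**Figure D3:**
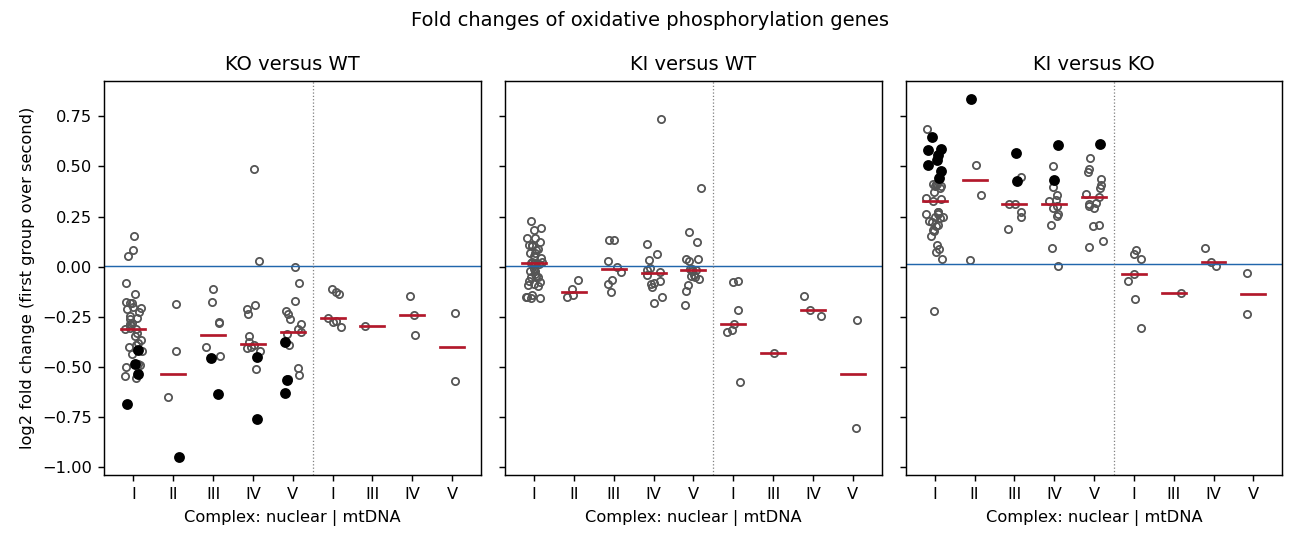
Log2 fold changes (vertical axis) of the 95 genes by complex (horizontal axis, nuclear genes left and mitochondrial genes right of the dotted line) in each comparison; filled points passed the test, red bars are medians and the blue line is the median of all genes. Nuclear genes lie below 0 in KO versus WT (median -0.33), around 0 in KI versus WT (-0.02) and above 0 in KI versus KO (0.33), while mitochondrial genes lie below 0 in both comparisons with WT (-0.26 and -0.27).

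Of the 13 mitochondrial genes, 0 were called in any comparison by limma, edgeR or DESeq2. An unadjusted limma p under 0.05 was found for 0 in KO over WT, 2 in KI over WT and 0 in KI over KO. Of all genes tested 25%, 11.6% and 24.9% had such a p in these comparisons in turn. All 13 mitochondrial genes had a log2 fold change below 0 in KO over WT (median -0.26, range -0.57 to -0.11). So did all 13 in KI over WT (median -0.27, range -0.81 to -0.07), and the 2 comparisons share the WT libraries. In KI over KO the median was -0.03, with 6 genes above 0 and 7 below. Single WT libraries carried much of this. The median deviation of the 13 genes from the WT mean was -0.40, -0.17 and -0.26 in KI livers, -0.32, -0.20 and -0.15 in KO livers, and 0.24, -0.01 and -0.24 in WT livers. Without WT_1 the median was -0.12 in KO over WT and -0.14 in KI over WT, and without KO_1 it was -0.16 in KO over WT. Without the 3 libraries with pancreatic transcripts, 1 of which is WT_3, the medians were -0.34 in KO over WT and -0.29 in KI over WT.

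mt-Co1, the catalytic subunit of complex IV, had the highest level per length of the 95 genes. It was at 159745, 186452 and 156719.8 normalized counts in KI livers, 153895, 157429 and 158234 in KO livers, and 237577, 212277.5 and 154359 in WT livers. The KO livers lay close together and WT_3 lay among them (KO over WT -0.34, limma adjusted p = 0.455). mt-Cytb, the cytochrome b of complex III, was at 39926, 58782 and 54445 in KI livers, 54385, 52433 and 58801 in KO livers, and 87465, 63895 and 55750.4 in WT livers, and again only WT_1 and WT_2 were above every KO and KI liver. mt-Nd4l, the smallest complex I subunit of mitochondrial DNA, was the 1 gene without overlap, at 3779, 5246 and 4664 in KI livers, 4867, 4327 and 5116 in KO livers, and 5547, 5646 and 5855 in WT livers. It did not pass in KO over WT (-0.26, limma adjusted p = 0.257) or in KI over WT (-0.33, limma adjusted p = 0.372).

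Of the other complex I genes of mitochondrial DNA, mt-Nd1, mt-Nd2, mt-Nd3, mt-Nd4 and mt-Nd5 had log2 fold changes of -0.11, -0.14, -0.30, -0.13 and -0.28 in KO over WT. In KI over WT they stood at -0.07, -0.07, -0.21, -0.29 and -0.32. mt-Nd6, the single protein gene on the light strand, was at 137, 279 and 260.1 in KI livers, 228, 330.2 and 249.7 in KO livers, and 466, 322 and 221 in WT livers, so the KO livers lay within the WT range and KI_1 lay below every WT liver. mt-Co2 and mt-Co3 of complex IV had log2 fold changes of -0.15 and -0.24 in KO over WT and of -0.15 and -0.21 in KI over WT. In complex V, mt-Atp6 stood at -0.23 in KO over WT and -0.27 in KI over WT. mt-Atp8 was at 377, 614 and 790.3 in KI livers, 575, 715 and 729 in KO livers, and 665, 879.6 and 1682 in WT livers, where WT_3 was far above the rest. The coding regions of mt-Atp8 and mt-Atp6, and of mt-Nd4l and mt-Nd4, overlap on the same strand, so the split of reads between them is uncertain.

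**Figure D4:**
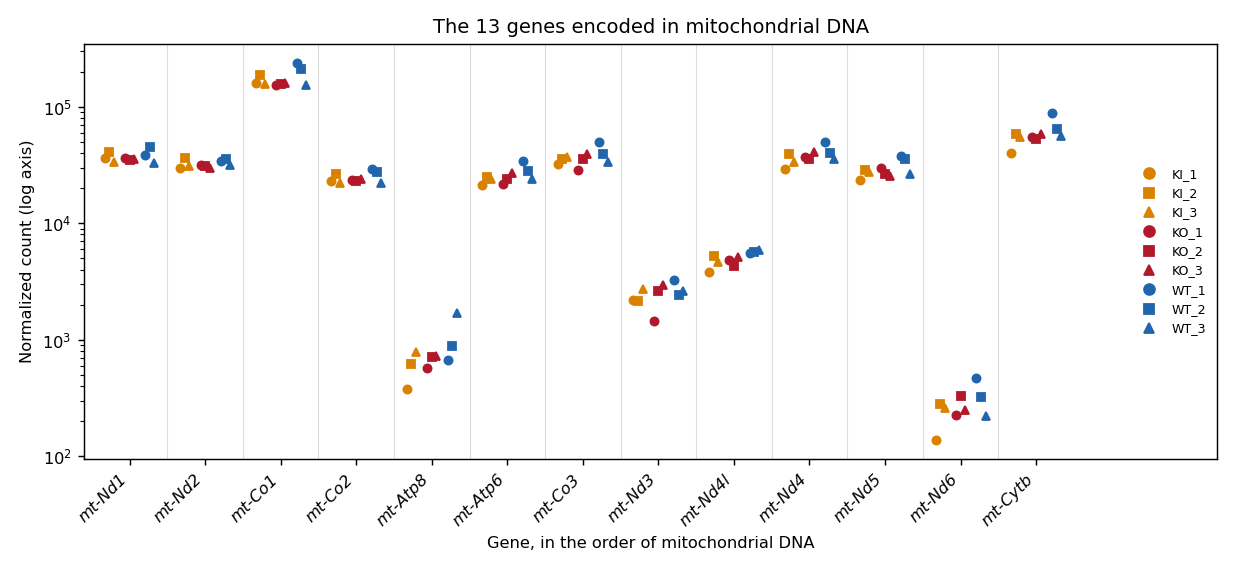
Normalized counts on a log axis (vertical) of the 13 protein-coding genes in their order along mitochondrial DNA (horizontal), 1 point per library, KI, KO and WT from left to right for each gene. WT_1 is high in most genes, for mt-Cytb at 87465, and WT livers overlap those of the other genotypes in all but mt-Nd4l.

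As a share of all reads, the nuclear genes took 0.873%, 0.983% and 0.819% in KI livers, 0.849%, 0.684% and 0.710% in KO livers, and 0.979%, 0.981% and 0.964% in WT livers. Since acute phase transcripts filled much of the KO libraries, the share was also taken of the reads outside the acute phase and pancreas lists. It was then 0.896%, 1.01% and 0.886% in KI livers, 0.929%, 0.874% and 0.915% in KO livers, and between 0.9995% and 1.0074% in WT livers. On both bases every KO liver was below every WT liver, and so were KI_1 and KI_3. The mitochondrial genes took 0.627%, 0.801% and 0.605% of all reads in KI livers, 0.662%, 0.683% and 0.816% in KO livers, and 1.0022%, 0.887% and 0.699% in WT livers. Outside those lists the KO share of mitochondrial genes was 0.725%, 0.873% and 1.05%, against 1.03%, 0.911% and 0.725% in WT livers.

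Levels per kilobase of exon compare genes with each other. The median nuclear gene stood at 2374 normalized counts per kilobase in KI, 1866 in KO and 2294 in WT livers for complex I (37 genes, without the 2 copies or paralogs Ndufa4l2 and Ndufb4c). It stood at 5578.5, 3691.5 and 6098 for complex II, 6347.0, 4906 and 6600.1 for complex III, 6999.7, 5595 and 7292 for complex IV (12 genes, without the 2 tissue isoforms Cox6b2 and Cox7a1), and 3483.5, 2751 and 3276 for complex V, in the same order of genotypes. In WT livers, with those 4 genes left out, the nuclear genes highest per length were Ndufa1, Sdhd, Uqcr10, Cox6b1 and Atp5a1 within their complexes, and the lowest were Ndufb2, Sdhc, Uqcrc1, Cox6c and Atp5o. mt-Co1 reached 108504, 101307 and 130359 per kilobase in KI, KO and WT livers. The lengths are annotated exon bases and include untranslated parts of transcripts that liver may not use. Exons of Ndufb2 and Atp5o also overlap those of another annotated protein-coding gene on the same strand. The split of reads there is uncertain, so their low levels may be too low.

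Complex IV has alternative subunits of other tissues, and per length the common forms were far higher in all genotypes. The muscle form Cox7a1 stood at 41.4 normalized counts per kilobase in KI, 38.1 in KO and 48.0 in WT livers, and its partner Cox7a2 at 7518, 6094 and 7187 in the same order. The testis form Cox6b2 stood at 12.7, 10.7 and 8.69 per kilobase, and Cox6b1 at 11784, 9677 and 12470.4. In normalized counts not scaled by length, Cox7a2 averaged 7097 ± 808 in KI, 5753 ± 476 in KO and 6785 ± 442 in WT livers. The paralog Cox7a2l, which takes part in joining complexes III and IV, averaged 5175 ± 449 in KI, 4116 ± 503 in KO and 5425 ± 357 in WT livers (SD, n = 3 each). Of these, 0 passed the test in KO over WT (limma adjusted p = 0.868, 0.241, 0.757, 0.085 and 0.0683 for Cox7a1, Cox7a2, Cox6b2, Cox6b1 and Cox7a2l). Cox4i1, Cox6a1 and Cox8a, whose tissue partners lay under the minimum, had log2 fold changes of -0.21, 0.03 and -0.39 and did not pass either (limma adjusted p = 0.294, 0.915 and 0.121).

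Genes that assemble the complexes were mostly not called. In KO over WT, 2 of 15 complex I assembly genes fell, 1 of 4 for complex V, and 0 of 4, 6 and 19 for complexes II, III and IV, beside 4.2% of all genes tested that were called lower. The medians were -0.20 for complex I, 0.05 for complex II, -0.02 for complex III, -0.09 for complex IV and -0.14 for complex V, against 0.001 over all genes. Ndufaf6, needed to build the complex I core, was at 539.9, 545 and 545 in KI livers, 382, 319 and 288 in KO livers, and 554, 589 and 461 in WT livers (KO over WT -0.70, limma adjusted p = 0.0204). Ndufaf4 averaged 2385 ± 318 in KI, 1471 ± 257 in KO and 2119 ± 67.7 in WT livers (-0.54, limma adjusted p = 0.0427). Fmc1, a complex V assembly factor known from yeast, averaged 644 ± 82.2 in KI, 371 ± 65.3 in KO and 642.5 ± 90.7 in WT livers (-0.80, limma adjusted p = 0.0202). All 3 were also higher in KI than in KO, as were Uqcc1 (0.46, limma adjusted p = 0.0496) and Surf1 (0.42, limma adjusted p = 0.0427), assembly genes of complexes III and IV. In KI over WT limma called 0 of the 152 genes of these and the following lists, edgeR 0 and DESeq2 3. An unadjusted limma p under 0.05 was found in 12 of the 152 and in 11.6% of all genes tested. Of the lists with 0 calls in KO over WT, edgeR called 1 complex IV assembly gene and DESeq2 3. There 0, 1 and 3 genes for complexes II, III and IV had an unadjusted limma p under 0.05, as did 25% of all genes.

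Of 25 genes that copy, transcribe and translate mitochondrial DNA, 2 fell in KO over WT and 0 rose (median -0.09). Over all genes tested 4.2% were called lower and 4.63% higher. Polg2, the accessory subunit of the mitochondrial DNA polymerase, was at 274, 265 and 345 in KI livers, 186, 138 and 124 in KO livers, and 519, 371 and 365 in WT livers. All KO values were below the lowest KI and WT values (KO over WT -1.48 ± 0.22, limma adjusted p = 0.00363; KI over KO 0.99, limma adjusted p = 0.0222). Hsd17b10, a dehydrogenase that is also part of mitochondrial RNase P, was at 4925, 5841 and 5105 in KI livers, 4919.7, 3129.9 and 2535 in KO livers, and 7104, 7588 and 6306 in WT livers (KO over WT -1.04, limma adjusted p = 0.0142). KI livers lay between the other genotypes for Polg2, and KO_1 was close to the KI livers for Hsd17b10.

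Of 14 tested regulators of mitochondrial biogenesis, 1 rose in KO over WT, where 4.63% of all genes tested were called higher. Pprc1, a coactivator related to PGC-1, was at 898, 667 and 805 in KI livers, 703, 721 and 705 in KO livers, and 466, 445 and 238 in WT livers (KO over WT 0.95, limma adjusted p = 0.0348). Both altered genotypes lay above WT, although KI over WT did not pass (1.09, limma adjusted p = 0.13). Ppargc1a, which encodes PGC-1 alpha, was at 238, 473 and 355 in KI livers, 1269.7, 1005 and 549 in KO livers, and 547, 573 and 409.5 in WT livers. It was lower in KI than in KO (-1.37, limma adjusted p = 0.0295) and did not pass in KO over WT (0.82, limma adjusted p = 0.147), where KO_3 overlapped WT. Esrra, an estrogen-related receptor that works with PGC-1 alpha, was at 1661, 1452 and 1666 in KI livers, 1297, 810.3 and 829 in KO livers, and 1310.2, 1392 and 1439.9 in WT livers. It was higher in KI than in KO (0.73, limma adjusted p = 0.0291) and its KO over WT difference of -0.53 did not pass (limma adjusted p = 0.085). For Nrf1 and Gabpa, whose motifs were searched above, the log2 fold changes in KO over WT were 0.31 and -0.20 and did not pass (limma adjusted p = 0.211 and 0.263).

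Around the respiratory chain, 3 of 19 genes of electron carriers and ubiquinone synthesis fell in KO over WT (median -0.20), 2 of 14 citric acid cycle genes (-0.27), 1 of 20 genes of cristae shape, import and folding (-0.28) and 0 of 12 exchange carriers (-0.24). These lists had 0 genes that rose, and edgeR called 1, 0, 1 and 0 genes of them in turn. Of all genes tested, limma called 4.2% lower in KO than in WT. Etfa and Etfb form the flavoprotein that brings electrons from fatty acid oxidation, and both fell. Etfb was at 648, 799.98 and 813 in KI livers, 511, 522 and 478 in KO livers, and 833, 793 and 749 in WT livers (KO over WT -0.65, limma adjusted p = 0.013). Etfa averaged 17351 ± 1052 in KI, 12896 ± 2072 in KO and 18372 ± 612 in WT livers (-0.52, limma adjusted p = 0.0389). Sqor, which oxidizes sulfide into the ubiquinone pool, averaged 9307 ± 2001 in KI, 8249 ± 1304 in KO and 12661 ± 659 in WT livers (-0.63, limma adjusted p = 0.0426). Cyc1, the cytochrome c1 of complex III, was at 10119, 6828 and 5765 in KO livers against 10886, 11189.99 and 10109 in WT livers and did not pass (-0.54, limma adjusted p = 0.0898). In the citric acid cycle the genes that fell were Idh3b (-0.67, limma adjusted p = 0.0385) and Idh2 (-0.52, limma adjusted p = 0.0452), both subunits of isocitrate dehydrogenases.

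The matrix chaperonin genes Hspe1 and Hspd1 were higher in KI than in KO livers. Hspe1 was at 11651, 8584 and 9689.6 in KI livers, 5044, 4694 and 4992 in KO livers, and 6349, 6626 and 8379 in WT livers. The genotypes did not overlap in any of the comparisons; Hspe1 fell in KO against WT (-0.53, limma adjusted p = 0.0487), was higher in KI than in KO (1.01, limma adjusted p = 0.00322) and did not pass in KI over WT (0.49, limma adjusted p = 0.227). Hspd1 averaged 33656 ± 4045 in KI, 20737 ± 2134 in KO and 28109.7 ± 2230.3 in WT livers, and was higher in KI than in KO (0.70, limma adjusted p = 0.019). It did not pass in KI over WT (0.26, limma adjusted p = 0.549), where the groups overlapped.

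**Figure D5:**
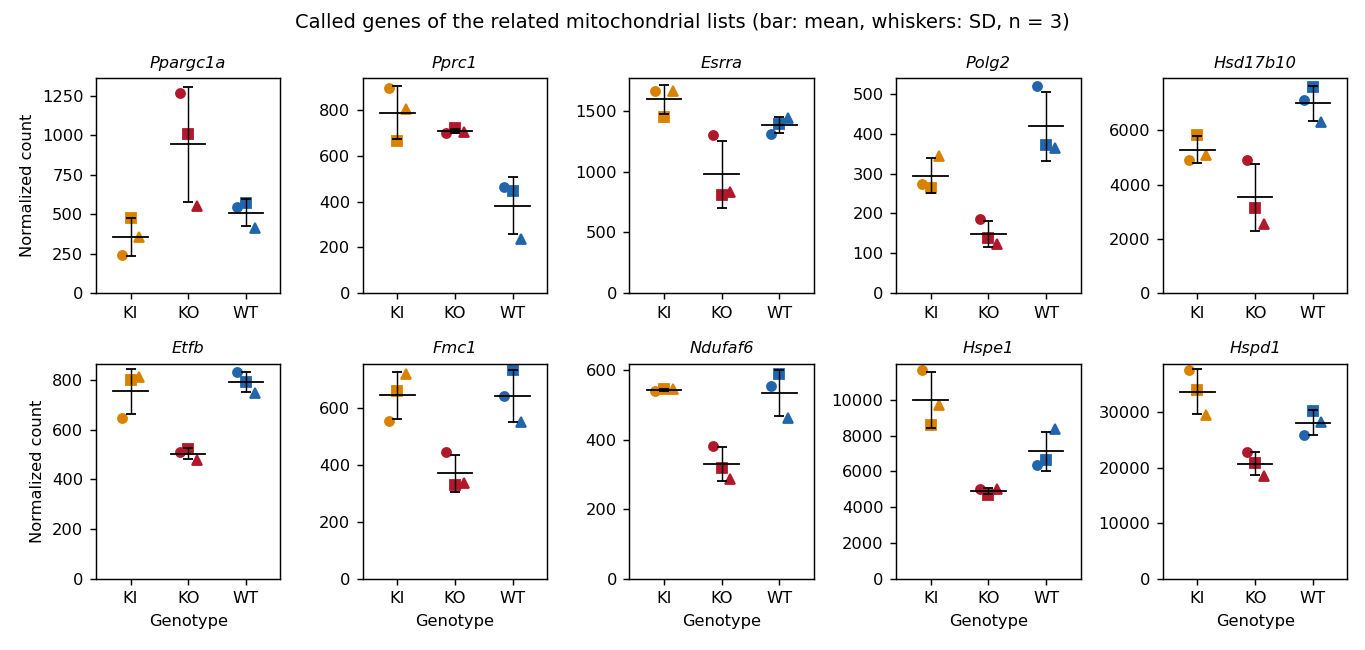
Normalized counts (vertical axes, from 0) of 10 genes of the related lists by genotype (horizontal axes), 1 point per library, with bars for the mean and whiskers for the SD of 3 libraries. Polg2, Etfb, Fmc1 and Ndufaf6 lie lowest in KO livers, Hspe1 averages 9975 in KI livers, and Ppargc1a spreads from 549 to 1269.7 in KO livers.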

How the data were processed

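The authors deposited 1 table of signal values, called normalized counts by its name, for 19944 genes in 9 libraries. The submitters' processing notes name TopHat2 and Bowtie2 for alignment to GRCm38 and featureCounts for counting; versions, annotation and strand setting are not given in the sources used here. Each deposited column holds read counts over 1 size factor (0.8921 to 1.1051), which could be undone to whole reads for all but 5 values (tolerance 0.0051). The labels do not state that the libraries of a genotype are separate mice, so p-values measure only the spread between these libraries.

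Values were tested as log2(value + 1) in 15238 genes with a mean of at least 10, with limma 3.58.1 in R 4.3.3, a variance trend, 1 mean per genotype, 6 residual degrees of freedom, two-sided tests and Benjamini-Hochberg adjustment over all of these genes. A gene with an adjusted p under 0.05 is called higher or lower. Fold changes are on the log2(value + 1) scale with standard errors (SE) from the fit; errors beside means are standard deviations. The code was tested on simulated data. Alternatives were other pseudocounts and filters, leaving out libraries, fits of the compared genotypes alone or with the replicate number as a block, scaling to CPM, and edgeR 4.0.16 and DESeq2 1.42.0 on the recovered reads. Coordinates and exon lengths are from GENCODE M21 (GRCm38), and promoters from RefSeq (GRCm38.p6).

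The genes, lists and tests were chosen with earlier results of these data known. By rule, the genes named are those called in a comparison, the gene of smallest p in a complex with none, all mitochondrial genes, the tissue isoforms of complex IV and at most 4 called genes per related list; others were named after their values were seen.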

Additional observations from a re-analysis of the deposited data

How the results depend on the processing

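Over the alternatives run, 0 of the 95 genes were called higher in KO than in WT or lower in KI than in KO, and 0 were called in KI over WT. For KO over WT, 12 genes of oxidative phosphorylation were called in the fit of all libraries, 0 without the 3 libraries with pancreatic transcripts, 4 with the 2 genotypes alone and 23 with DESeq2; over all genes the counts were 1346, 30, 871 and 2292. For KI over KO the subunit counts were 14, 0, 2 and 25, and 3 with either CPM scaling; over all genes they were 1287, 4, 608 and 2286. For KI over WT the counts over all genes were 4 in the fit of all libraries, 8 with no filter, 7 with a minimum mean of 50, 0 without those libraries, 28 with the 2 genotypes alone, 7 with CPM of the total, 8 with CPM of nuclear reads, 1 with edgeR and 385 with DESeq2. edgeR called 8 subunit genes in KO over WT and 11 in KI over KO. Leaving out 1 library gave 501 to 2516 genes and 2 to 48 subunit genes in KO over WT, 0 to 35 and 0 in KI over WT, and 400 to 2301 and 0 to 47 in KI over KO; the highest counts came without KO_1. All 12 and all 14 called genes were called again there and by DESeq2. The cause was not tested. Outside the acute phase and pancreas lists the mean share of reads in nuclear genes was 0.906% in KO against 1.004% in WT livers (0.748% and 0.975% of all reads), and that of mitochondrial genes in KO 0.883% (0.720%).

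Signs turned only in genes that were not called. Leaving out 1 library in KO over WT, mt-Nd1 ran from -0.221 to 0.004 (without WT_2), mt-Nd3 from -0.5 to 0.013 (without KO_1), mt-Nd4 from -0.232 to 0.002 (without WT_1), Cox6a1 from -0.076 (without KO_1) to 0.129, Cox6b2 from -0.254 (without WT_3) to 1.049, and Cox7a1 from -0.712 to 0.133 (without WT_1), with 0.019 without KO_3. In KI over WT mt-Nd1 ran from -0.182 to 0.043 (without WT_2). Without the 3 libraries, Cox6b2 stood at -0.254 in KO over WT, and Cox8a at 0.027 and mt-Nd2 at 0.040 in KI over WT. Libraries with the same replicate number did not deviate together in every pair (correlations -0.14 to 0.57). The highest values were 0.57 for KI_3 with WT_3 and 0.53 for KI_2 with WT_2. With 3 libraries per genotype, these correlations cannot decide whether the numbers pair libraries. With the replicate block 15 subunit genes were called in KO over WT, 0 in KI over WT and 15 in KI over KO, and 1551, 3 and 1500 over all genes.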

Other observations

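Pseudogenes of 2 subunit genes held counts of their own. Ndufs5-ps held a mean of 949 normalized counts, or 109% of the mean of Ndufs5, and Ndufa12-ps held 429 normalized counts, or 18.03% of Ndufa12, and whether reads were split between copies was not tested. The other pseudogenes with a parent among the subunit genes held at most 1.02% of it. Of the 95 genes, 41 share exon bases with another annotated gene, 31 of them with a gene on the opposite strand, and 6 of the 17 called genes are among the 41.

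Nuclear subunit genes were divided into 41 with shorter and 41 with longer annotated exons, at a median of 1578 bases. In KO_1, KO_2 and KO_3 the median log2 deviation from the WT mean was -0.12, -0.37 and -0.43 in the shorter and -0.11, -0.39 and -0.59 in the longer genes. In KI_3 it was 0.06 in the shorter and -0.03 in the longer genes. Kupffer cell genes (12 of 12 present) summed to 34209, 20980.3 and 34982 normalized counts in KI livers, 29719, 25923 and 52313 in KO livers, and 31923.5, 17562 and 29804 in WT livers; their part in the subunit results was not tested.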
